A study of Mus musculus with 677 samples.

Results

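Carboxylesterases are hydrolases of the endoplasmic reticulum that cleave ester bonds in drugs, pesticides and dietary or stored lipids. The genes described here are Ces1f, Ces2a, Ces2c and Ces2e, 4 of the 23420 genes in the table and 4 of its 19 carboxylesterase genes. They were chosen by their measured TPM in these same cells, which climbed between early enterocyte progenitors and enterocytes, so that climb is given below as a description, without a test.

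The cells came from the intestinal epithelium of C57BL/6 mice that either lacked Atg16l2, an autophagy-related gene (KO, labelled as knockout), or were wild type (WT). The samples were single cells, read here as profiled by SMART-Seq2, a full-length cDNA method that makes a library for each cell. The labels' protocols also name a 10X Genomics kit. The values were deposited as TPM, transcripts scaled to a fixed total in each cell. Each cell name carried the authors' cell type (9 in all), a run number (1 or 2) and a code M1 or M2, which was read as an animal, so each genotype had 2 animals. The labels give no age, sex, gut segment or kind of knockout allele, and leave unsaid if a code that occurs in both runs is a single mouse. The absorptive cells numbered 58 Enterocyte (12 and 17 KO, 18 and 11 WT by animal), 75 Enterocyte.prog.late (10 and 22 KO, 22 and 21 WT) and the rest Enterocyte.prog.early cells (42 and 36 KO, 31 and 33 WT).

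In mammals the Ces1 enzymes are most abundant in liver, and Ces2 enzymes are the main carboxylesterases of the small intestine, where they meet esters taken up from food. Human CES2 hydrolyses prodrugs such as irinotecan, and mouse Ces2 enzymes also hydrolyse triglycerides and diglycerides. Absorptive enterocytes arise from crypt stem cells through dividing transit amplifying (TA) cells and progenitors, and take up and process dietary lipids and foreign compounds once mature.

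All 4 genes lie on mouse chromosome 8 in GENCODE vM21 (GRCm38). Ces2a (104734003 to 104741634, plus strand), Ces2c (104847068 to 104854483) and Ces2e (104926260 to 104934672) sit in a tandem array of Ces2 genes and together span 200.7 kb. Ces1f (93256236 to 93279747, minus strand) belongs to the Ces1 array, 11.5 Mb away. The 250 bases upstream of the annotated start of the Ces2 members, from the RefSeq promoter table of build GRCm38.p6, are shown because these members share an array. Their common climb is the rule that chose them. Ces2b, which lies between Ces2a and Ces2c, averaged 3.47 TPM in Enterocyte.prog.early and 4.58 TPM in Enterocyte cells. Capitals mark the matches to the motifs searched.

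Ces2a, chr8:104733753-104734002, plus strand: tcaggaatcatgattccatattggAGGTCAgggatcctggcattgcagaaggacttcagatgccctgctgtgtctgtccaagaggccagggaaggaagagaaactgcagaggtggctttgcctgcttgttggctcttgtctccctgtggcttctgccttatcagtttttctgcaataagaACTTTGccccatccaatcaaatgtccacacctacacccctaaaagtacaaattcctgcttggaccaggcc
Ces2c, chr8:104846818-104847067, plus strand: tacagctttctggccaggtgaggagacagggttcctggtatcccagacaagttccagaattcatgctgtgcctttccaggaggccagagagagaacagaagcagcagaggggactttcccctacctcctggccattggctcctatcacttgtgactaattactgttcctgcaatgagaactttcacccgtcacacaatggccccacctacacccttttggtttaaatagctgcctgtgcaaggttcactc
Ces2e, chr8:104926010-104926259, plus strand: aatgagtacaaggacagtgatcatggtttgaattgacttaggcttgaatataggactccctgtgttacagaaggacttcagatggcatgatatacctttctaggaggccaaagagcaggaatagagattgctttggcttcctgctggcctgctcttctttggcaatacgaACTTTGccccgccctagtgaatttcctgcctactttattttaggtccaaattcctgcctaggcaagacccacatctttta

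Both strands were searched for the TATA box, spelled TATAAA, an HNF1 motif as GTTAAT, an HNF4 core as CAAAGT, the motif of GATA factors as AGATAA, the motif of CDX2 as TTTATG, and nuclear receptor cores, spelled AGGTCA in the first form searched and AGTTCA in the other. No match overlapped another in the windows shown. CAAAGT, read on the minus strand as ACTTTG, lay at -70 to -65 from the Ces2a start and at -80 to -75 from the Ces2e start. Of 32851 promoters, 12.6% held it in the same 250 bases. AGGTCA lay at -226 to -221 in Ces2a, and 14% of promoters held it. The Ces2c window held none of the letters searched. The other motifs, which none of the 3 windows held, occurred in 12.4% of promoters for the TATA box, 6.43% for HNF1, 9.99% for GATA, 10.8% for CDX2 and 11.8% for the other receptor core. Aligned end to end, the Ces2a and Ces2c windows were identical at 64.6% of columns, Ces2a and Ces2e at 53.2%, and Ces2c and Ces2e at 52.3%. The longest run shared by Ces2a and Ces2e was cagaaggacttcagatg, 17 bases. No other promoters were aligned, so these identities have no background to be set against.

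TPM is scaled per transcript length, so these genes can be set beside each other, with a limit for Ces2c. Of the 50-base stretches of Ces2c transcripts, 34.3% also occurred in another carboxylesterase transcript, nearly all of them in the pseudogene Ces2d-ps (32.7% of the stretches). The same share was 0.301% for Ces1f, 1.84% for Ces2a and 3.30% for Ces2e. Reads from the shared stretches of Ces2c could have been assigned to either gene. Ces2d-ps was listed at 1.71 TPM over Enterocyte cells, against 414 TPM for Ces2c, and how reads were divided between them was not tested.

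Ces2e, annotated as a pyrethroid hydrolase, was the most abundant carboxylesterase of the absorptive cells. It averaged 1901 ± 320 TPM in Enterocyte cells, 1045 ± 168.7 TPM in Enterocyte.prog.late cells and 468 ± 90.04 TPM in Enterocyte.prog.early cells (SD, n = 4 animals). TA cells had 136.1 ± 20.5 TPM, Stem cells 75.9 ± 13.1 TPM and Goblet cells 31.4 ± 6.81 TPM. No neighbours in this order overlapped over the 4 animals. By its mean over the 58 Enterocyte cells, 1942 TPM, Ces2e was the 55th highest of all genes.

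Ces2a, a hydrolase of drug esters and diglycerides in mouse, averaged 457 ± 242.99 TPM in Enterocyte cells, 243.3 ± 57.9 TPM in Enterocyte.prog.late cells and 101.4 ± 28.1 TPM in Enterocyte.prog.early cells. Its level in Stem cells, 76.1 ± 15.5 TPM, was above that in TA cells, 54.5 ± 4.03 TPM, but the animals of these types overlapped. The Enterocyte and Enterocyte.prog.late animals also overlapped, whereas all Enterocyte.prog.late animals (193.4 to 322.02 TPM) lay above all Enterocyte.prog.early animals (64.4 to 123.8 TPM). Goblet cells were lowest of these 6 types, with 28.8 ± 7.86 TPM.

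Ces2c, described in mouse intestine as a triglyceride and diglyceride hydrolase, averaged 419 ± 139.9 TPM in Enterocyte, 211.4 ± 118.8 TPM in Enterocyte.prog.late and 78.1 ± 36.8 TPM in Enterocyte.prog.early cells, and each overlapped the next over the animals. In Stem cells it averaged 35.3 ± 15.2 TPM, in TA cells 17.3 ± 5.75 TPM and in Goblet cells 16.7 ± 7.48 TPM, again with overlap between neighbours.

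Ces1f, a member of the Ces1 subfamily otherwise known from liver, had the lowest level of the 4 in Stem, TA and Goblet cells. It averaged 239.1 ± 151.5 TPM in Enterocyte, 136.05 ± 57.7 TPM in Enterocyte.prog.late and 53.8 ± 16.7 TPM in Enterocyte.prog.early cells, and ranked 656th in Enterocyte cells. TA cells held 5.86 ± 1.65 TPM and Goblet cells 5.04 ± 3.13 TPM. Stem cells, at 6.43 and 0 TPM in the KO animals and 0 and 0.582 TPM in the WT animals, held the least of the 6 types with at least 10 cells from every animal. The gap between TA and Enterocyte.prog.early cells, with no overlap of animals, came to 2.97 ± 0.64 on the log2(TPM + 1) scale, against 1.77 ± 0.16 for Ces2e, 2.07 ± 0.54 for Ces2c and 0.84 ± 0.52 for Ces2a.

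**Figure D1:**
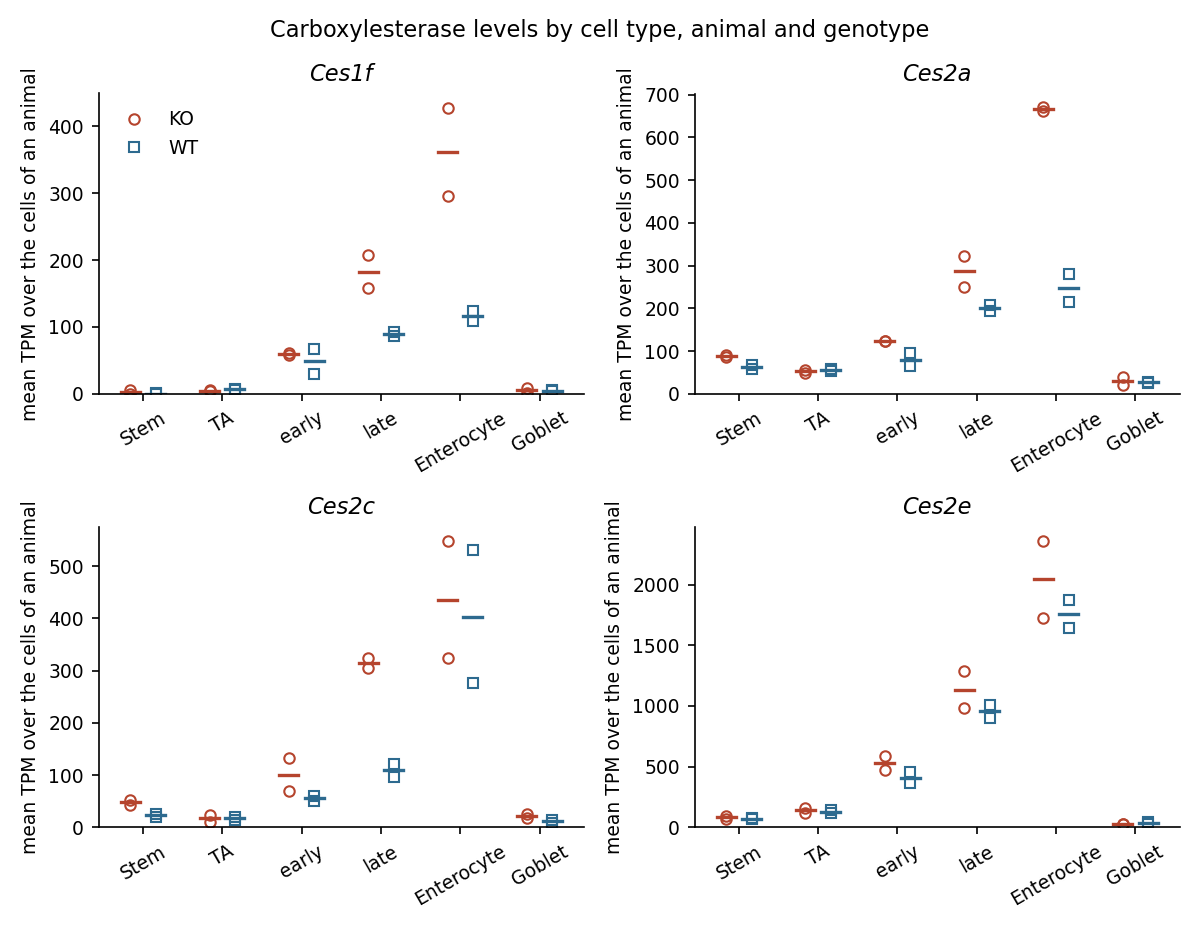
Mean TPM over the cells of an animal (y axis, linear, a different range in each panel) in 6 cell types (x axis; early and late are the enterocyte progenitors), with KO animals as red circles left of WT animals as blue squares and bars at the mean of the 2 animals. Every member climbs toward Enterocyte cells, where KO and WT animals lie apart for Ces1f (427 and 295.9 TPM in KO, 123.8 and 109.2 TPM in WT) and Ces2a and overlap for Ces2c and Ces2e.

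Across the whole step that chose them, Enterocyte over Enterocyte.prog.early cells, the members differed by similar amounts. On the log2(TPM + 1) scale the difference was 1.97 ± 0.84 for Ces1f, 2.03 ± 0.46 for Ces2a, 2.45 ± 0.63 for Ces2c and 2.02 ± 0.23 for Ces2e (SD over 4 animals). Ces2e was the most even, with 0.82 to 0.90 in every animal between Enterocyte.prog.late and Enterocyte cells. For Ces2c that last step ranged over animals between 0.00 and 2.12.

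The climb was also one of the number of cells listed above 0 TPM. Ces1f was above 0 TPM in 6.25% of Stem cells (exact 95% binomial interval 2.33 to 13.1%), 12% of TA cells (7.58 to 17.8%) and 53.5% of Enterocyte.prog.early cells (45.0 to 61.9%). The share reached 73.3% in late progenitors (55 of 75, interval 61.9 to 82.9%) and 77.6% in enterocytes (45 of 58, 64.7 to 87.5%). For Ces2c the shares were 31.2% in Stem, 22.9% in TA, 57.7% in early progenitor, 80% in late progenitor and 98.3% in Enterocyte cells. Ces2a was above 0 TPM in most cells throughout, with 64.6% of Stem and 98.3% of Enterocyte cells. Ces2e was above 0 TPM in 65.6% of Stem cells and in all 58 Enterocyte cells. All 4 genes were above 0 TPM together in 33.1% of the early progenitors, 60% of the late ones (45 of 75) and 75.9% of enterocytes (44 of 58). The intervals cover counting error only, and a value of 0 in a cell may be a transcript that was missed.

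The secretory types were low and uneven. None of the 7 Tuft cells was above 0 TPM for Ces1f, Ces2c or Ces2e, which allows a share of up to 42.9% of such cells. Among the 22 Paneth cells, Ces2e averaged 15.7 and 514 TPM in the KO animals and 101.7 and 0.201 TPM in the WT animals; the 514 TPM of KO M2 rested on 3 cells. Among the 32 Enteroendocrine cells, Ces2c averaged 0 and 38.7 TPM in the KO animals and 23.2 and 215.3 TPM in the WT animals, the highest value resting on 3 cells.

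The other 15 carboxylesterase genes of the table were mostly low. The members made up 95.4% of all carboxylesterase TPM in Enterocyte cells (3051 of 3199 TPM), 93.8% in Enterocyte.prog.late, 88.2% in Enterocyte.prog.early, 70.4% in TA and 59.4% in Stem cells. Ces2g and Ces1e are each a close relative of a member. Ces2g climbed less steeply, with 19.2 TPM over Stem cells and 85.96 TPM over Enterocyte cells. Ces1e averaged 16.4 TPM over Stem and 43.9 TPM over Enterocyte cells, but this climb was not shared by the genotypes. In the KO animals Ces1e had 12.5 and 6.05 TPM in Stem and 78.9 and 52.5 TPM in Enterocyte cells. In the WT animals it had 24.8 and 21.01 TPM in Stem and 28.7 and 17.3 TPM in Enterocyte cells, with no common rise. Ces1d, a triglyceride hydrolase known from liver and fat, was lower in Enterocyte than in Stem cells. It averaged 83.7 TPM over Stem cells, 46.8 TPM over TA cells and 4.84 TPM over Enterocyte cells. The remaining genes averaged above 1 TPM in at least 1 type as follows. Ces2d-ps (19.9 TPM), Ces3a (21.6 TPM), Ces2b (9.42 TPM), Ces2h (3.50 TPM) and Ces2f (3.11 TPM) were highest in Enteroendocrine cells, each above 0 TPM in 3 to 9 of 32 cells. WT M2, with 3 of these cells, had the highest animal mean for each of the 5, and without it Ces3a averaged 9.13 TPM and Ces2f 1.94 TPM. Ces1c (9.87 TPM) was highest in Goblet, Ces1b (3.88 TPM) in Stem and Ces1g (3.07 TPM) in Enterocyte.prog.early cells. Ces1a and Ces4a stayed under 1 TPM in every type, and Ces3b and Ces5a were listed at 0 in every cell.

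**Figure D2:**
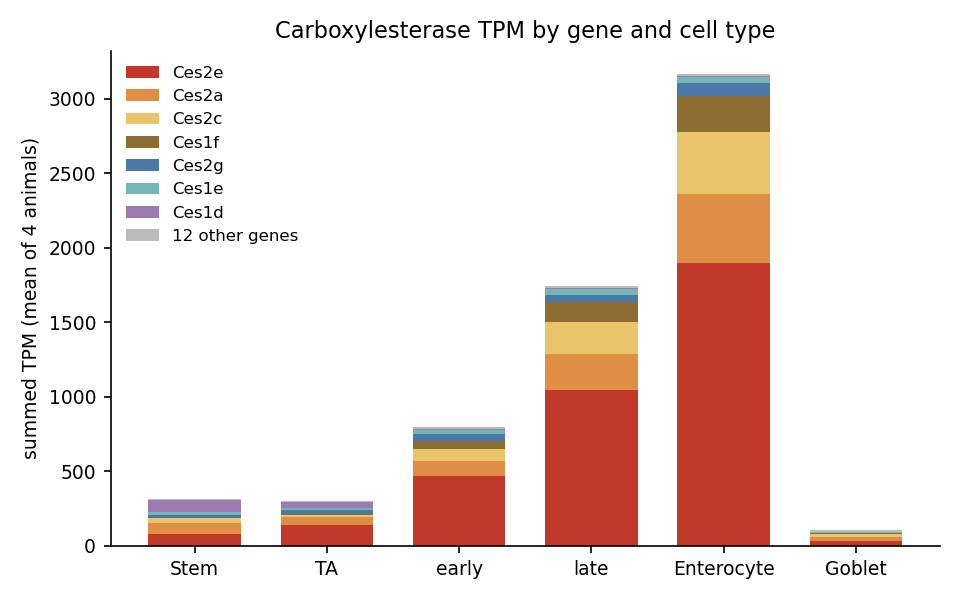
Summed TPM of all 19 carboxylesterase genes (y axis, mean of 4 animals) in 6 cell types (x axis), stacked by gene. Ces2e fills most of each bar in the absorptive types, and Ces1d is a visible share in Stem and TA cells.

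Before the genotypes were compared, their labels and cells were checked. Atg16l2 was above 0 TPM in 0 KO cells, which allows a share of up to 0.877%, and in 38 WT cells (11.3%). Of those 38, 3 were of the absorptive types. Summed enterocyte markers (Alpi, Apoa1, Apoa4, Fabp1, Fabp2, Sis, Anpep and Slc5a1, all 8 in the table) averaged 22149 TPM over Enterocyte cells, 3139 TPM over Enterocyte.prog.late and 1247 TPM over Enterocyte.prog.early cells, against 481 TPM over Stem cells. Each absorptive profile averaged 10 to 42 cells. The run 1 cells of KO M2 stood apart: their absorptive profile had the lowest mean correlation with the other 7 run-by-animal profiles (Pearson r across genes 0.921, the others 0.927 to 0.942), and 83 ribosomal protein genes averaged 8.80 on the log2 scale there, the others 9.27 to 10.1. Values without those cells are given below.

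KO and WT were compared with limma on log2(mean TPM + 1) per animal, adjusting p-values by Benjamini-Hochberg over every gene kept, at a threshold of 0.05. The comparison asks whether loss of Atg16l2 changed these genes in absorptive cells. The design has 2 animals a side, and an exact permutation test of a single gene could not go below p = 0.333. No member passed in any comparison. As background, 0.126% of 6360 genes passed in the average of the 3 absorptive types, 0.0% of 6565 in Enterocyte.prog.early cells, 0.0817% of 6120 in Enterocyte.prog.late cells and 0.0342% of 5854 in Enterocyte cells. In Enterocyte.prog.early cells, where limma called 0 genes, 5.51% had an unadjusted p under 0.05. Both KO animals lay above both WT animals in 12 of the 16 member comparisons. Those were 4 of 4 in the average (18.4% of all genes), 3 of 4 in Enterocyte.prog.early (22.7%), 3 of 4 in Enterocyte.prog.late (14.5%) and 2 of 4 in Enterocyte cells (16.3%).

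Of the members in Enterocyte cells, Ces2a had the smallest adjusted p. Its means were 670.5 and 662 TPM in the KO animals, against 280.7 and 215.6 TPM in the WT animals. The 2 KO animals were nearly equal and lay well above both WT animals, with 666 ± 5.68 TPM in KO and 248.1 ± 45.99 TPM in WT (SD, n = 2 each), a ratio of 2.69. The log2 difference was 1.43 (SE 0.20, 95% interval 0.97 to 1.89), and limma gave an adjusted p of 0.0614, the 5th smallest unadjusted p of 5854 genes. The median cell of each animal gave the same order, 607 and 443 TPM in KO and 233.6 and 169.1 TPM in WT. In Enterocyte.prog.late cells Ces2a averaged 250.8 and 322.02 TPM in KO and 193.4 and 206.99 TPM in WT (log2 difference 0.50, SE 0.25), and in Enterocyte.prog.early cells 122.9 and 123.8 TPM in KO and 94.7 and 64.4 TPM in WT (0.65, SE 0.23). The groups did not overlap in either, and the limma adjusted p-values were 0.892 and 0.822.

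Ces1f followed in Enterocyte cells, with 427 and 295.9 TPM in the KO animals and 123.8 and 109.2 TPM in the WT animals. The KO animals were apart from WT and from each other, at 361.7 ± 93.03 TPM in KO and 116.5 ± 10.3 TPM in WT, a ratio of 3.10. The log2 difference was 1.6 (SE 0.25, 95% interval 1.05 to 2.16), with a limma adjusted p of 0.0846. Ces1f was above 0 TPM in 26 of 29 KO Enterocyte cells (89.7%) and in 19 of 29 WT Enterocyte cells (65.5%). Among single cells it spanned a wide range: 22.4 to 1214 TPM in KO M1 (median 445), 0 to 820 TPM in KO M2 (median 198.1), 0 to 696 TPM in WT M1 (median 39.3) and 0 to 434 TPM in WT M2 (median 46.9). In Enterocyte.prog.late cells it averaged 157.8 and 207.7 TPM in KO and 92.4 and 86.3 TPM in WT (1.01, SE 0.27, limma adjusted p = 0.544). The groups overlapped in Enterocyte.prog.early cells, at 57.6 and 60.4 TPM in KO and 67.6 and 29.5 TPM in WT.

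Ces2c had its largest estimate in Enterocyte.prog.late cells. It averaged 323.2 and 304.3 TPM in the KO animals, against 96.8 and 121.3 TPM in the WT animals, or 313.7 ± 13.3 TPM in KO and 109.1 ± 17.3 TPM in WT, a ratio of 2.88. Both KO animals were above both WT animals, and the log2(TPM + 1) difference was 1.52 (SE 0.25, 95% interval 0.97 to 2.08, limma adjusted p = 0.0595). In Enterocyte cells the groups overlapped, at 323.4 and 548 TPM in KO and 275.5 and 531 TPM in WT, and the difference was 0.14 (95% interval -0.62 to 0.89). The high animals there were KO M2 and WT M2. In Enterocyte.prog.early cells Ces2c averaged 69.6 and 131.9 TPM in KO and 60.97 and 49.7 TPM in WT (0.79, SE 0.31, limma adjusted p = 0.857).

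Ces2e had the smallest estimate in the average. In Enterocyte cells it averaged 1728 and 2358 TPM in KO and 1877 and 1639.9 TPM in WT, and the groups overlapped. The difference was 0.20 (95% interval -0.21 to 0.62, limma adjusted p = 0.832). In Enterocyte.prog.late cells the means were 980.5 and 1289.8 TPM in KO and 1007 and 904 TPM in WT, again with overlap. In Enterocyte.prog.early cells they were 470.2 and 584 TPM in KO and 365.4 and 453 TPM in WT, with both KO animals higher (0.37, SE 0.18, limma adjusted p = 0.860).

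Averaged over the 3 absorptive types, all 4 members had both KO animals above both WT animals, the order given above for 18.4% of genes. The differences were 1.0 for Ces1f (95% interval 0.56 to 1.44, limma adjusted p = 0.157), 0.86 for Ces2a (0.50 to 1.23, adjusted p = 0.125), 0.82 for Ces2c (0.35 to 1.29, adjusted p = 0.385) and 0.27 for Ces2e (-0.10 to 0.63, adjusted p = 0.813). The median of the 4 was 0.84, beside a median of 0.00048 over all genes tested. The members' summed level in Enterocyte cells was 3150 and 3864 TPM in the KO animals and 2557 and 2495 TPM in the WT animals. Whether the genotype difference varied over the 3 types was tested with limma's F test, which 0.0314% of 6360 genes passed and no member did (adjusted p = 0.659 for Ces1f, 0.542 for Ces2a, 0.620 for Ces2c and 0.935 for Ces2e). The different types in which Ces2c and the pair Ces1f and Ces2a were furthest apart are therefore not shown to differ.

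**Figure D3:**
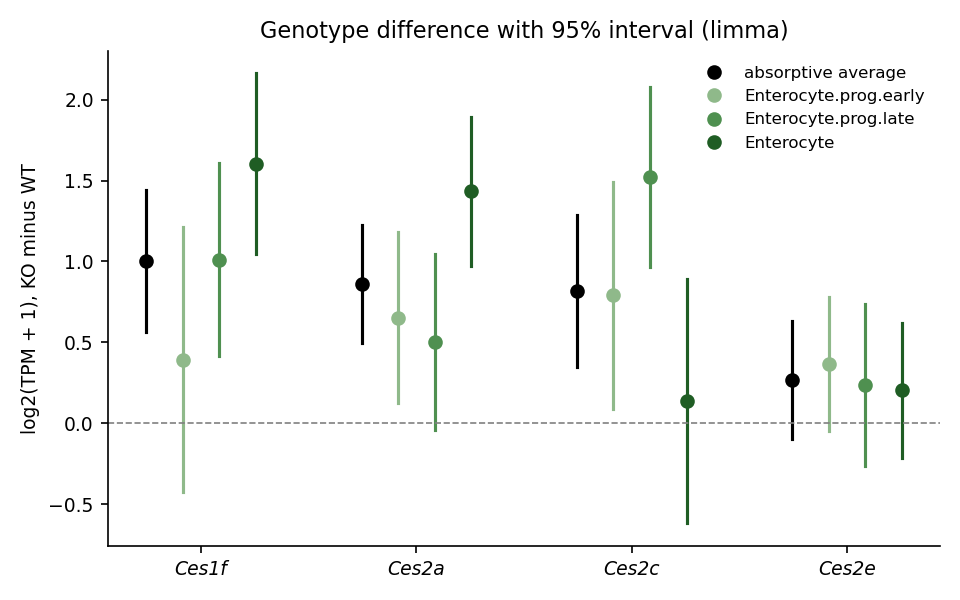
KO minus WT difference in log2(TPM + 1) (y axis) for each member (x axis), in the average of the absorptive types and in each type, as points with 95% intervals from limma (2 animals a side). Ces1f and Ces2a are highest in Enterocyte cells (1.6 and 1.43), Ces2c in Enterocyte.prog.late cells (1.52), and every Ces2e interval spans 0.

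The runs did not give the same picture for all members. Counting each member in each absorptive type, both KO animals were above both WT animals in 10 of 12 cases in run 1 and in 3 of 12 in run 2, and in the other cases they overlapped. In run 1 these were 3 of 4 members in Enterocyte.prog.early cells (29.8% of all genes kept had the same order), 4 of 4 in Enterocyte.prog.late (15.8%) and 3 of 4 in Enterocyte cells (14.1%). In run 2 they were 0 of 4 in Enterocyte.prog.early (13.4% of genes), 1 of 4 in Enterocyte.prog.late (13.8%) and 2 of 4 in Enterocyte cells (20%). Those 3 were Ces1f and Ces2a in Enterocyte cells and Ces2c in Enterocyte.prog.late cells, which also did not overlap in run 1. In run 2 Enterocyte cells, Ces1f averaged 337.4 and 332.7 TPM in KO and 151.3 and 152.2 TPM in WT, and in run 1 it averaged 608 and 207.6 TPM in KO and 80.5 and 73.4 TPM in WT. Ces2a averaged 468 and 694 TPM in KO and 273.3 and 204.5 TPM in WT in run 2, and 1076 and 587 TPM in KO and 292.1 and 224.9 TPM in WT in run 1. Ces2c in Enterocyte.prog.late cells averaged 192.4 and 230.7 TPM in KO and 98.3 and 133.5 TPM in WT in run 2, and 410.4 and 377.96 TPM in KO and 94.3 and 116.4 TPM in WT in run 1. Both KO animals were higher in each of these. The means by run rest on few cells. Enterocyte means used 4 and 5 KO and 7 and 6 WT cells in run 1, and 8 and 12 KO and 11 and 5 WT cells in run 2. Enterocyte.prog.late means used 6 and 11 KO and 8 and 15 WT cells in run 1, and 4 and 11 KO and 14 and 6 WT cells in run 2.

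In the average over types, the log2 difference was 1.37 in run 1 and 0.50 in run 2 for Ces1f. It was 0.97 and 0.75 for Ces2a, 1.23 and 0.31 for Ces2c, and 0.61 and -0.10 for Ces2e. Without the run 1 cells of KO M2 it was 0.73 for Ces1f, 0.88 for Ces2a, 0.61 for Ces2c and 0.15 for Ces2e, and none passed. In Enterocyte cells the differences without them were 1.69 for Ces1f and 1.47 for Ces2a, both with a limma adjusted p of 0.0196. In that fit 0.463% of all genes passed, against 0.0342% with every cell. Both genes also passed under settings that kept those cells (the number of the 18 alternatives that passed is given below). Without those cells, the difference in Enterocyte.prog.late cells was -0.036 for Ces1f and 1.33 for Ces2c (limma adjusted p = 0.414).

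**Figure D4:**
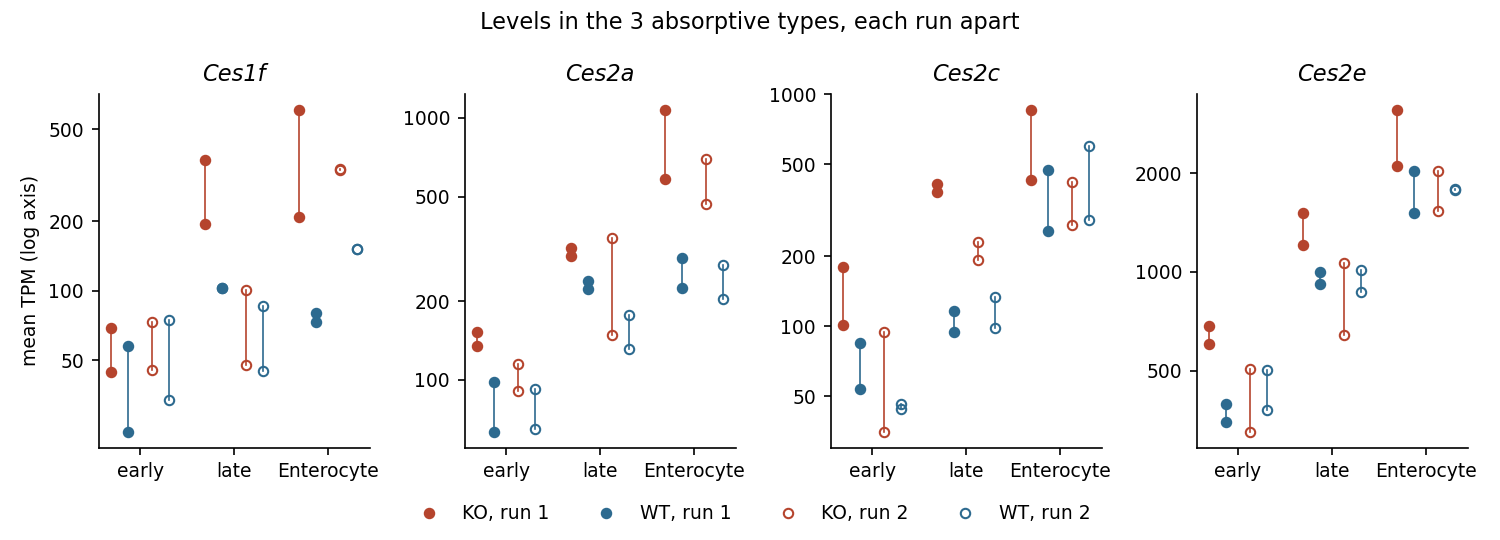
Mean TPM per animal (y axis, log scale, a different range in each panel) in the 3 absorptive types (x axis), with run 1 (filled) left of run 2 (open) and KO (red) left of WT (blue); a line joins the 2 animals of a group. KO lies above WT in both runs for Ces1f and Ces2a in Enterocyte cells and for Ces2c in late progenitors.

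Ces2a and Ces1f in Enterocyte cells and Ces2c in Enterocyte.prog.late cells crossed the threshold under some of 18 alternative settings. The limma adjusted p of Ces2a ranged between 0.0123 and 0.993 and passed in 9. That of Ces1f reached 0.993 and passed in 6. That of Ces2c reached 0.9998 and passed in 3. These counts include fits without 1 animal, in which a group of 1 animal has no measured spread. The share of all genes called also rose in some of those fits and under other settings, as given at the end. In Enterocyte cells it was 0.0342% in the main fit, 0.444% with the M number as a replicate block and 0.341% with a filter at 50 TPM. Under some other settings no gene was called there. The differences stayed above 0 in each of the 18, between 1.24 and 1.76 for Ces2a, 1.14 and 2.94 for Ces1f, and 0.87 and 1.97 for Ces2c. In the average of the types, Ces1f, Ces2a and Ces2c each passed in 2 of the 18, and 1 of these was a fit without 1 animal. Over the alternatives the limma adjusted p there reached 0.875 for Ces1f, 0.879 for Ces2a and 0.910 for Ces2c. Ces1f in Enterocyte.prog.late cells passed in 1, the fit without KO M1.

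Markers of other cells and of position differed between the same animals. In Enterocyte cells, the summed level of 6 T cell markers was 36.01 and 21.3 TPM in KO and 0.902 and 1.58 TPM in WT, with none at 0. The 7 Paneth markers summed to 3910.3 and 552 TPM in KO and 154.8 and 100.1 TPM in WT, with none at 0. Goblet markers overlapped (48.4 and 2244 TPM in KO, 41.4 and 58.9 TPM in WT). Tuft markers were near 0 in every animal, with 4 of 6 at 0. Stem markers summed to 336.2 and 22.6 TPM in KO and 7.26 and 5.43 TPM in WT, and TA markers to 201.8 and 133.7 TPM in KO and 94.3 and 126.4 TPM in WT, each with both KO animals higher and none of 6 at 0. The 8 enterocyte markers were lower in both KO animals there, at 19128.5 and 20293 TPM in KO and 22019 and 28526 TPM in WT. The 12 villus tip genes summed to 6221 and 7973 TPM in KO and 10949 and 13317 TPM in WT, and the 19 distal small intestine genes to 3015 and 3859.6 TPM in KO and 4912 and 4674 TPM in WT. The 21 proximal small intestine genes overlapped in Enterocyte cells, at 20405 and 18483 TPM in KO and 13413 and 19902 TPM in WT. In Enterocyte.prog.late cells, where Ces2c was furthest apart, the Paneth markers summed to 664 and 8965 TPM in KO and 70.1 and 81.2 TPM in WT. The T cell markers were lower in both KO animals there, at 0.513 and 1.19 TPM in KO and 1.40 and 5.20 TPM in WT, with 2 of 6 at 0. There, 21 proximal small intestine genes summed to 5101 and 5297 TPM in KO and 2933 and 3279.9 TPM in WT, and the enterocyte markers were higher in both KO animals, at 3667 and 3933 TPM in KO and 2195 and 3045 TPM in WT. Of 5 Paneth markers tested, 2 passed in Enterocyte.prog.late cells (0.0817% of all genes) and 2 in the average of the absorptive types (0.126%), higher in KO. Their smallest limma adjusted p-values were 0.0454 and 0.00402, the latter the smallest of all 6360 genes. None passed in Enterocyte cells. The part of these marker and position genes in the carboxylesterase differences was not tested. TPM is a share of a cell's transcripts, so a higher level of the gene and a lower level of other transcripts cannot be told apart.

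Within single Enterocyte cells the members went with position genes to different degrees. Over 58 cells, log2 Ces1f had r = 0.41 with the proximal list and r = -0.45 with the distal list. The proximal list had r = 0.53 with Ces2a, 0.52 with Ces2e and 0.29 with Ces2c, and the distal list had r = -0.10, 0.29 and 0.03 with them. With the villus tip list, Ces2e had r = 0.43 and Ces1f r = -0.17. These correlations are descriptions over cells that share animals, runs and a TPM total.

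Some pairs of carboxylesterases varied together from cell to cell. Ces1f and Ces2g, from separate arrays, had r = 0.79 over 58 Enterocyte cells, with 0.54 among the KO cells and 0.88 among the WT cells. Ces2a and Ces2c had r = 0.53 (0.51 in KO, 0.56 in WT), Ces2c and Ces2e 0.49 (0.62 in KO, 0.40 in WT), and Ces2a and Ces2e 0.45 (0.51 in KO, 0.42 in WT). Ces1f had r = 0.39 with Ces2a over all cells but 0.24 among the KO cells and 0.25 among the WT cells. With Ces2e it had 0.18, and with Ces2c -0.0051. In Enterocyte.prog.late cells (75) the pairs of members ranged between 0.086 for Ces2a with Ces2c and 0.36 for Ces2c with Ces2e. In Enterocyte.prog.early cells every pair of members lay between 0.26 and 0.35.

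Ces2g and Ces1e had both KO animals above both WT animals in Enterocyte cells, an order held by 16.3% of all genes there. In Enterocyte.prog.late cells Ces2g had this order and Ces1e did not (log2 difference 0.015). In Enterocyte.prog.early cells neither had it. Ces2g averaged 146.1 and 100.6 TPM in KO and 58.3 and 43.1 TPM in WT (log2 difference 1.26, SE 0.31, limma adjusted p = 0.308). Ces1e averaged 78.9 and 52.5 TPM in KO and 28.7 and 17.3 TPM in WT (1.49, SE 0.39, limma adjusted p = 0.324). The other 13 fell under the filter on low values in all absorptive comparisons.

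Genes whose profile was most like each member, by Pearson r over 24 profiles (4 animals by 6 cell types) among 6718 genes, were named as 3 per member. Carboxylesterases and genes with Gm or Rik symbols were left out of this choice. For Ces2e they were Maoa, a monoamine oxidase (r = 0.99), Tm6sf2, a lipoprotein-loading factor (0.98), and Sult1d1, a sulfotransferase (0.98). For Ces2a they were Btnl1, a butyrophilin-like molecule of the gut epithelium (0.96), Gstm3, a glutathione transferase (0.95), and Adh1, an alcohol dehydrogenase (0.94). For Ces2c they were Fabp1, the liver-type fatty acid binding protein (0.96), Tcn2, the vitamin B12 carrier (0.94), and Tep1, a telomerase-associated protein (0.94). For Ces1f they were Apol10a, an apolipoprotein L gene (0.96), Arg2, a mitochondrial arginase (0.96), and Cyp4f40, a cytochrome P450 (0.95).

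Other genes of drug and lipid metabolism were compared in the same fits. In the average of the absorptive types, none of 15 phase 1 oxidation genes tested passed, with a median difference of 0.30. Both KO animals were above both WT animals for 7 of them and below for 2. Over all genes tested in the average, these orders were held by 18.4% and 16.9%. Cyp3a25, a cytochrome P450 of drug oxidation, differed by 1.90 (SE 0.34, limma adjusted p = 0.120), Ephx1, the microsomal epoxide hydrolase, by 1.36, and Por, the electron donor of cytochromes P450, by 0.56. None of 12 glucuronidation and sulfation genes passed (median 0.30), with both KO animals higher for 9 (18.4% of all genes). The 12 include Papss2, which makes the sulfate donor (0.85), and the glucuronosyltransferases Ugt2b5 (0.93) and Ugt1a7c (0.38). In Enterocyte cells Papss2 averaged 303.1 and 335.6 TPM in KO and 111.4 and 97.7 TPM in WT (limma adjusted p = 0.0614).

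Of 5 retinyl ester handling genes tested, 1 passed. Aldh1a1, a retinaldehyde dehydrogenase, was higher in KO, by 1.34 (SE 0.19, limma adjusted p = 0.0430) in the average and, in Enterocyte.prog.late cells, at 90.3 and 79.8 TPM in KO and 16.02 and 18.2 TPM in WT (limma adjusted p = 0.0454). Rbp2, the retinol binding protein of enterocytes, differed by 0.75 and Rdh7, a retinol dehydrogenase, by 0.73, without passing. None of 8 neutral lipid hydrolases passed (median -0.06), with Nceh1, a cholesteryl ester hydrolase, at 0.63, Pnpla2, the adipose triglyceride lipase, at 0.24 and Abhd5, its activator, at -0.43. None of 13 triglyceride resynthesis and lipoprotein assembly genes passed (median -0.00), with Dgat2 at -0.46, Agpat2 at -0.23 and Agpat9 at -0.39, all 3 acyltransferases of glycerolipid synthesis.

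None of 12 regulators described for carboxylesterase genes passed (median 0.21). Nr1i3, the xenobiotic receptor CAR, differed by 0.50, Hnf4a, a nuclear receptor of enterocytes and liver, by 0.29, and Cdx2, an intestinal homeobox factor, by 0.44. None of 7 genes of endoplasmic reticulum folding and retention passed (median 0.00), with Hspa5 at -0.15, P4hb at 0.10 and Kdelr1 at 0.05. Of the position lists, 1 of 21 proximal genes passed (Aldh1a1; median 0.31, with Creb3l3 at 1.25 and Adh6a at 0.96), 0 of 15 distal genes (median -0.09, with Clec2h at -0.47, Prss30 at -0.57 and Fam151a at -1.25), 0 of 10 villus bottom genes (median 0.27) and 0 of 7 villus tip genes (median 0.08, with Fos at -0.96). In Enterocyte cells the villus bottom gene Reg1, a secreted lectin, was higher in KO, at 5596 and 4189 TPM in KO and 1018 and 466 TPM in WT (limma adjusted p = 0.0214). The 10 villus bottom genes together were lower in both KO animals there, at 28115 and 35130 TPM in KO and 35324 and 38390 TPM in WT. By the estimate, 6 of the 10 were higher in KO and 4 lower. In Enterocyte cells the list medians were -0.74 for distal, -0.11 for proximal, -0.51 for villus tip and 0.23 for villus bottom genes. They were -0.23 for the triglyceride resynthesis and 0.28 for the glucuronidation and sulfation genes, beside -0.04 over all genes tested.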

How the data were processed

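The authors deposited 1 table of TPM per gene and cell, whose columns sum to nearly the same total and keep no read depth. Bowtie, TopHat and RSEM are named, without versions, per the submitters' processing notes; the genome build and the filters on cells are not given in the sources used here, and per the labels' protocols SMART-Seq2 and a 10X Genomics kit were both used. Cell types are the authors' names. The members and gene lists were chosen with earlier results of these data known. TPM was averaged over the cells of each animal and type and tested as log2(mean TPM + 1) with limma 3.58.1 in R 4.3.3 (eBayes with trend, two-sided, 2 residual degrees of freedom, Benjamini-Hochberg over all genes that averaged 10 TPM or more and were above 0 TPM in 10% or more of the cells). All 4 members passed that filter. A fold on this scale understates the change of low genes. Nothing in the labels beyond the codes says that the animals were separate. The p-values set each difference against the spread between these profiles, which limma moderates over genes. The named genes are the members, the other carboxylesterases above 1 TPM in any type, the 3 nearest profiles per member, and Atg16l2. From the lists, cell type markers apart, the genes that passed or the 3 of smallest p are named. Others named were chosen after their values were seen. The fits were tested on simulated data, with the cells of each animal drawn from all animals pooled. Such data hold no difference between animals, so they cannot show how often the fits err here. RefSeq promoters were matched by symbol for 3 of the 4 members.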

Additional observations from a re-analysis of the deposited data

How the results depend on the processing

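Over 288 repeats of the member differences (16 differences, 18 alternatives each), 25 passed the threshold, all higher in KO, and 11 turned sign. Leaving out the highest cell per profile, and fitting 8 run-by-animal units with run as a covariate, were chosen after seeing the data. In run 2 alone the sign turned for Ces2e (-0.10 in the average, -0.10 early, -0.18 late, -0.012 Enterocyte) and for Ces2c in Enterocyte cells (-0.30), and the Enterocyte minus early change of the Ces2e difference was 0.092. Without the run 1 cells of KO M2 it turned for Ces1f late (-0.036) and Ces2c in Enterocyte cells (-0.057). Leaving out each animal gave -0.33 to 0.61 for Ces2c in Enterocyte cells, -0.022 to 0.43 for Ces2e there, -0.19 to 0.98 for Ces1f early and -0.41 to 0.088 for that Ces2e change. The causes were not tested.

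The M numbers did not pair the animals (correlations -0.07 to 0.02). With the number as a replicate block, 0.991% of genes were called in the average, 0.18% late and 0.444% in Enterocyte cells, with adjusted p of 0.000966, 0.0075 and 0.0166 for Ces1f, Ces2a and Ces2c in the average and 0.0123 for Ces1f and Ces2a in Enterocyte cells.

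The genes called as reported were 8 in the average (0.126%), 0 early, 5 late (0.0817%), 2 in Enterocyte cells (0.0342%) and 2 for variation over types (0.0314%). These counts moved by over 1.5 times as follows, as percent of genes tested. A pseudocount of 0.1 gave 0.0786% in the average and 0.0157% for variation, and 10 gave 0.0163% late, 0.0854% in Enterocyte and 0.0157% for variation. No filter, and eBayes without trend, gave 0% in the average, late, Enterocyte and variation. A filter at 50 TPM gave 0.161% in the average, 0% late and 0.341% in Enterocyte. Log values averaged over cells gave 0% in the average, late and Enterocyte, 0.0629% for variation, and onset differences of 2.92 for Ces2a, 4.37 for Ces2c and 2.47 for Ces2e. Quantile normalization gave 0.204% in the average, 0.131% late, 0.154% in Enterocyte and 0.0157% for variation. Run 1 gave 0.0156% in the average, 0.0163% late, 0.0168% in Enterocyte and 0% for variation, and run 2 gave 0.0478%, 0%, 0% and 0%. Without the run 1 cells of KO M2 these were 0.27%, 0.0166%, 0.463% and 0.0159%, and with cells of at least 5000 genes 0.0629%, 0.18%, 0.0857% and 0.0157%. Both alternatives chosen later gave 0% in the average, late and Enterocyte. Leaving out each animal gave 0.283 to 0.896% in the average, 0.0152 to 0.0762% early, 0 to 2.25% late (2.25% without KO M1, 1.96% without KO M2, 0% without either WT animal), 0.0854 to 1.02% in Enterocyte and 0 to 0.11% for variation, with the lone animal assumed to vary like the others. TPM keeps no depth, so low values cannot be weighed by counts.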
